A study of Homo sapiens with 39 samples.

Results

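Mitosis and chromosome segregation genes are described here as a set of 45 genes, chosen by symbol for their known roles in cell division. All 45 were found among the 21530 gene symbols of the polysome table and among the 26334 symbols of the RNA immunoprecipitation (RIP) tables. The data come from human bronchial epithelial cells (HBEC), an airway cell line grown in keratinocyte serum-free medium, and from Flp-In-293 cells, a line derived from human embryonic kidney. The 3 HBEC lines were a line with the S34F mutation of the splicing factor U2AF1 (S34F), a line labelled as carrying a Frame Shift of U2AF1 (FS), an allele the labels do not describe further, and a wild-type line (WT). Each HBEC line gave 8 libraries of 1 polysome gradient, from monosomes, from 2, 3, 4, 5, 6 and 7 ribosomes and from pooled 8-10 ribosomes. RIP added 3 libraries per line: RNA pulled down with U2AF1 (IP), RNA pulled down with control immunoglobulin (IgG) and RNA of the cytosol (Cytosol). PAR-CLIP, which marks RNA that touches a protein through T-to-C conversions, was made on U2AF1 carrying a FLAG-HA tag in Flp-In-293, from cytoplasm of S34F cells, cytoplasm of WT cells and chromatin of WT cells. The labels do not say whether a line is 1 clone, and they give 1 library per line and fraction, so p-values measure only the spread between libraries of these 3 lines.

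Cells that divide make these mRNAs mainly in the G2 and M phases. CDK1 with cyclins A2, B1 and B2 starts mitosis, the aurora and polo kinases build the spindle, and the spindle checkpoint holds separation back until every kinetochore is attached. The anaphase-promoting complex, switched on by CDC20, then marks securin (PTTG1) and cyclin B for destruction, which frees separase (ESPL1) to part the chromatids. A polysome gradient sorts mRNA by the number of ribosomes it carries. Long coding regions have room for more ribosomes, so an mRNA's place in the gradient depends on its length as well as on how densely it is loaded. U2AF1 binds the AG that ends an intron, and the S34F change is known to alter which base before that AG it prefers.

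Many genes of this kind share promoter letters known as the cell cycle homology region, TTTGAA on either strand, often with a CCAAT box nearby. RefSeq promoters (GRCh38.p14, 250 bases before to 50 bases after the start) were matched for 37 of the 45 genes. TTTGAA or its reverse complement TTCAAA lay in 27 of the 37 windows, 73.0%, against 15.4% of all 27305 promoters of the same length. CCAAT or ATTGG lay in 28 of them, 75.7%, against 35.7% of all promoters. Both lay in 20, 54.1%, against 6.08% of all, and neighbouring copies of the motifs can share an end base. Short windows are shown for genes whose gradient values follow, with TTTGAA in capitals, because they show the shared letters in their surroundings.
CCNB2: agcgacgcggtaTTTGAAtcctggaacaag
MKI67: tcttcgttttcgTTTGAAttgggcgggcgc
PLK1: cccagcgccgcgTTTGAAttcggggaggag
CDC20: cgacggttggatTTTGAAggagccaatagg
KIF23: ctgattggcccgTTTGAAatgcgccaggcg
PRC1: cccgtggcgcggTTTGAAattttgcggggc
SPC25: aagtgcactaggTTTGAAatcggaaagttg
The windows lie at chr15:59105105-59105134 for CCNB2, chr10:128126435-128126464 for MKI67, chr16:23678848-23678877 for PLK1 and chr1:43358904-43358933 for CDC20. Those of KIF23, PRC1 and SPC25 lie at chr15:69414282-69414311, chr15:90994538-90994567 and chr2:168890416-168890445. MKI67, PRC1 and SPC25 are on the minus strand. The capitals began 29 bases before the start in CCNB2, MKI67 and PLK1, 20 in PRC1, 65 in CDC20, 55 in KIF23 and 3 in SPC25, so their distance from the start varied. A match of letters is a description of the window and does not show that a factor binds there.

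Gradient libraries held 2440145 to 13367574 counts and RIP libraries 2582141 to 29769968. Levels are given as CPM, the count scaled to the library's total. Where a gene has no count, up to 3 counts are possible, which is 0.224 to 1.23 CPM in the gradients and 0.101 to 1.16 CPM in RIP, for counting error only. U2AF1 itself averaged 24.4 CPM over the S34F gradient, 57.8 CPM over the FS gradient and 44.3 CPM over the WT gradient, and such gene totals do not show the alleles. All 12 markers of basal airway cells were at 1 CPM or more in the gradients, with a sum of 6853 to 14579 CPM per library. Sums of the markers of other cells were lower, at 11.7 to 84.0 CPM for 8 ciliated or secretory genes, 1.98 to 22.4 CPM for 8 mesenchymal genes, 2.60 to 41.7 CPM for 5 endothelial genes and 80.9 to 385 CPM for 7 leukocyte genes. SCGB1A1, CDH5 and CD3E were at 0 in every RIP library, but other genes of their lists were detected. In IP the sums were 10.3 to 26.7 CPM for ciliated or secretory, 0.755 to 10.1 CPM for endothelial and 49.2 to 75.9 CPM for leukocyte genes. Leukocyte genes summed to 93.6 to 175 CPM in IgG. Basal genes summed to 13238 to 21384 CPM in IP. At 8-10 ribosomes against monosomes 6 of the 12 basal genes were called higher and 0 lower, and of the 5 ciliated or secretory genes tested 0 higher and 3 lower.

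Most of the mitosis genes were higher in the pooled 8-10 fraction than in monosomes. Of the 45 genes, 37 were higher at 8-10 ribosomes than in monosomes, 3 were lower and 5 did not pass the test (edgeR quasi-likelihood test with the line as a block, 3 libraries per fraction, Benjamini-Hochberg adjusted p under 0.05 over 15945 genes). Of all genes tested, 28.3% were called higher, 21.6% lower and 49.9% either way. The median log2 fold change was 1.36 for the 45 genes and 0.08 for all genes tested, and 36 of the 37 rises were past 2-fold. Taken per line, the median log2 ratio of the 45 genes was 1.77 in S34F, 0.99 in FS and 0.65 in WT, against 0.08, -0.11 and -0.14 over all 15580 genes with at least 100 counts. The ratio was above 0 in all 3 lines for 36 genes and below 0 in all 3 lines for 3. The 8-10 fraction was the peak of the gradient for 35 of the 45 genes in S34F, 30 in FS and 33 in WT, against 39.9%, 29.5% and 29.0% of the 9501 genes that had 500 counts or more per gradient. Only 29 of the 45 genes had that many counts, so these shares are not of like sets. Without the S34F line 25 genes were called, 24 of them higher, and the median was 1.07. Without FS the calls of BIRC5, ECT2, NUF2 and UBE2C were lost, and without WT those of BIRC5, ECT2 and TTK. Without the line as a block, 22 genes were called higher and 3 lower, and calls of 15 genes were lost, those of CDK1, UBE2C, NUF2, KIF2C, SMC4 and NCAPG among them.

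**Figure D1:**
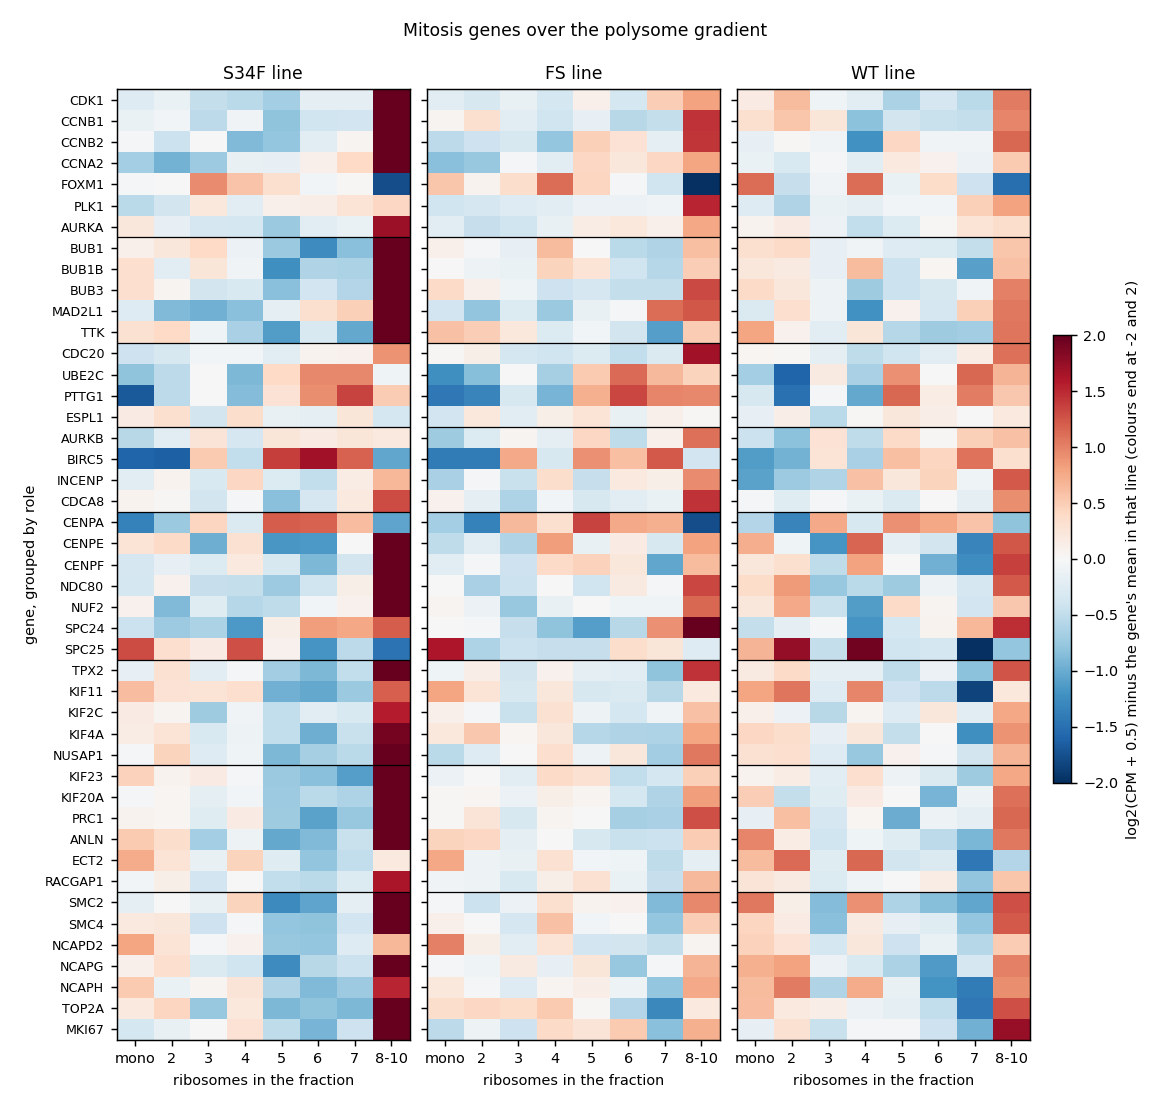
Heat map of the 45 genes (vertical axis, grouped by role) over the 8 fractions (horizontal axis, number of ribosomes) in the S34F, FS and WT lines, 1 library per cell; colour is log2(CPM + 0.5) minus the gene's mean in that line. Most genes are reddest at 8-10 ribosomes, while BIRC5, CENPA, PTTG1 and UBE2C are highest at 5 to 7 ribosomes. FOXM1, SPC25 and ECT2 are lower at 8-10 ribosomes than in monosomes in each line.

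Among CDK1, its cyclins and their regulators, 6 of 7 genes rose at 8-10 ribosomes against monosomes. CCNB2, cyclin B2, had 72.5, 57.1 and 21.0 CPM at 8-10 ribosomes in the S34F, FS and WT lines, against 14.2, 14.3 and 8.22 CPM in monosomes. The 2 fractions did not overlap, and the log2 fold change was 2.05 ± 0.32 (SE, edgeR adjusted p = 4.96e-05). CCNA2, cyclin A2, had 85.0, 68.3 and 23.0 CPM at 8-10 ribosomes in S34F, FS and WT, against 11.5, 21.7 and 14.4 CPM in monosomes, a log2 fold change of 1.92 ± 0.32 (edgeR adjusted p = 8.81e-05). The WT rise in CCNA2 was the smallest of the 3 lines, and its 8-10 library stood just above the FS monosomes. CDK1 rose by 1.82 ± 0.34, CCNB1 by 1.69 ± 0.32, PLK1 by 1.56 ± 0.34 and AURKA by 1.10 ± 0.29 on the log2 scale (SE, edgeR adjusted p from 0.000218 to 0.00321). FOXM1, the transcription factor that drives many G2 and M genes, went the other way, with 72.1, 58.3 and 44.4 CPM at 8-10 ribosomes in S34F, FS and WT, against 243, 367 and 277 CPM in monosomes. Every 8-10 library of FOXM1 was below every monosome library, with a log2 fold change of -2.29 ± 0.37 (edgeR adjusted p = 6.44e-05).

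All 5 spindle checkpoint genes rose. MAD2L1, which together with BUB1B and BUB3 holds CDC20 in check, had 44.1, 37.7 and 11.8 CPM at 8-10 ribosomes in S34F, FS and WT, against 6.86, 11.8 and 4.34 CPM in monosomes (log2 fold change 2.11 ± 0.36, SE, edgeR adjusted p = 0.000109). Its WT value at 8-10 ribosomes was at the level of the FS monosomes. TTK, the kinase at the top of the checkpoint, had 28.6, 14.8 and 5.32 CPM at 8-10 ribosomes in S34F, FS and WT, against 5.95, 15.7 and 4.27 CPM in monosomes (1.10 ± 0.40, edgeR adjusted p = 0.027). The TTK libraries overlapped, the FS value was slightly below its monosomes, and without S34F the log2 fold change was 0.39 and not called. BUB1, BUB1B and BUB3 rose by 1.23 ± 0.37, 1.21 ± 0.38 and 1.25 ± 0.28 on the log2 scale (edgeR adjusted p from 0.00103 to 0.011). The calls of BUB1 and BUB1B were lost without S34F and without the block. Their log2 ratios were 2.12 and 1.84 in S34F, 0.50 and 0.50 in FS, and 0.24 and 0.37 in WT.

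Of the 4 genes of anaphase onset, 3 rose. PTTG1, the securin that blocks separase, had 181, 191 and 125 CPM at 8-10 ribosomes in S34F, FS and WT, against 39.3, 36.0 and 68.7 CPM in monosomes (1.85 ± 0.41, SE, edgeR adjusted p = 0.000854). CDC20 and UBE2C, the activator and a ubiquitin-conjugating enzyme of the anaphase-promoting complex, rose by 1.54 ± 0.33 and 1.44 ± 0.39 (edgeR adjusted p = 0.000728 and 0.00381). ESPL1, separase, was not called, with 28.6, 27.8 and 21.9 CPM at 8-10 ribosomes in S34F, FS and WT, against 41.3, 20.9 and 17.0 CPM in monosomes (0.25 ± 0.27, edgeR adjusted p = 0.451). Its S34F value was lower at 8-10 ribosomes, while FS and WT were higher.

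All 4 genes of the chromosomal passenger complex, which corrects wrong spindle attachments, rose. INCENP, its scaffold, had 36.3, 41.1 and 28.4 CPM at 8-10 ribosomes in S34F, FS and WT, against 19.4, 13.2 and 5.38 CPM in monosomes (1.79 ± 0.33, SE, edgeR adjusted p = 0.000209). BIRC5, survivin, had 48.2, 62.7 and 66.6 CPM at 8-10 ribosomes in S34F, FS and WT, against 32.3, 30.7 and 24.5 CPM in monosomes (1.29 ± 0.41, edgeR adjusted p = 0.0125). Neither gene's fractions overlapped, but the BIRC5 call was lost without the WT or the FS line. AURKB, the kinase, and CDCA8, borealin, rose by 1.43 ± 0.35 and 1.35 ± 0.27 (edgeR adjusted p = 0.00189 and 0.00039).

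At the kinetochore and centromere, 5 of 7 genes rose, 1 fell and 1 was not called. The 4 subunits of the NDC80 complex, which grips microtubule ends, did not move together. SPC24 had 24.6, 23.2 and 11.4 CPM at 8-10 ribosomes in S34F, FS and WT, against 7.57, 5.44 and 2.58 CPM in monosomes, the largest rise of the 45 genes (2.18 ± 0.47, SE, edgeR adjusted p = 0.000655). NDC80 and NUF2 rose by 1.76 ± 0.36 and 1.48 ± 0.52 (edgeR adjusted p = 0.000391 and 0.0224). SPC25 had 69.0, 126 and 136 CPM at 8-10 ribosomes in S34F, FS and WT, against 480, 463 and 372 CPM in monosomes (-1.83 ± 0.55, edgeR adjusted p = 0.00843), and its call was lost without S34F. SPC25 is the partner of SPC24 at the centromere end of the complex, yet its level was far above that of SPC24 in each monosome library. CENPE, a kinesin, and CENPF, a large kinetochore protein, rose by 1.47 ± 0.46 and 1.75 ± 0.36 (edgeR adjusted p = 0.0109 and 0.00049), and without S34F the calls of CENPE and NUF2 were lost. CENPA, the histone H3 variant that marks centromeres, had 19.4, 10.5 and 14.4 CPM at 8-10 ribosomes in S34F, FS and WT, against 15.8, 22.8 and 16.9 CPM in monosomes (-0.23 ± 0.35, edgeR adjusted p = 0.587).

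Of the spindle motors and assembly factors, 4 of 5 rose. TPX2, which activates AURKA on the spindle, had 171, 143 and 57.7 CPM at 8-10 ribosomes in S34F, FS and WT, against 32.6, 49.0 and 27.1 CPM in monosomes (1.81 ± 0.27, SE, edgeR adjusted p = 3.12e-05). NUSAP1, KIF4A and KIF2C rose by 1.52 ± 0.37, 1.14 ± 0.32 and 1.02 ± 0.27 (edgeR adjusted p from 0.00163 to 0.00578), and the KIF4A call was lost without S34F. KIF11, the motor that pushes the spindle poles apart, had 53.2, 29.5 and 19.0 CPM at 8-10 ribosomes in S34F, FS and WT, against 35.5, 45.2 and 28.6 CPM in monosomes (-0.06 ± 0.29, edgeR adjusted p = 0.871). Only the S34F value of KIF11 was higher at 8-10 ribosomes.

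For the central spindle and cytokinesis, 5 of 6 genes rose and 1 fell. PRC1, which bundles the midzone microtubules, had 70.4, 40.7 and 15.9 CPM at 8-10 ribosomes in S34F, FS and WT, against 12.6, 16.7 and 6.06 CPM in monosomes (1.91 ± 0.33, SE, edgeR adjusted p = 0.000107). KIF20A, KIF23, RACGAP1 and ANLN rose by 1.36 ± 0.33, 1.22 ± 0.33, 1.05 ± 0.27 and 0.85 ± 0.32 (edgeR adjusted p from 0.00183 to 0.0285). Calls for KIF20A, RACGAP1 and ANLN were lost without S34F, and those for all 4 without the block. The log2 ratio of ANLN was 1.76 in S34F, 0.05 in FS and 0.08 in WT. ECT2, the exchange factor that places the contractile ring, had 79.7, 68.9 and 41.0 CPM at 8-10 ribosomes in S34F, FS and WT, against 116, 135 and 95.8 CPM in monosomes (-0.77 ± 0.26, edgeR adjusted p = 0.0164). The ECT2 fractions did not overlap, but its call was lost when any 1 line was left out, with log2 fold changes from -0.80 to -0.73.

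Of the 7 genes of chromosome condensation and structure, 5 rose. MKI67, the proliferation marker that coats mitotic chromosomes, had 166, 74.5 and 59.9 CPM at 8-10 ribosomes in S34F, FS and WT, against 30.7, 31.3 and 15.5 CPM in monosomes (2.07 ± 0.34, SE, edgeR adjusted p = 6.88e-05). The condensin core subunits SMC2 and SMC4 rose by 1.37 ± 0.41 and 1.20 ± 0.31, NCAPG by 1.41 ± 0.42 and TOP2A, the topoisomerase that untangles chromatids, by 1.28 ± 0.40 (edgeR adjusted p from 0.00283 to 0.01). These 4 calls were lost without S34F, and those of SMC4, NCAPG and TOP2A also without the block. TOP2A was not higher in every line, with 54.0 CPM at 8-10 ribosomes against 60.5 CPM in monosomes in FS, and log2 ratios of 2.33 in S34F, -0.16 in FS and 0.69 in WT. NCAPH, the clasp of the condensin ring, had 29.5, 22.8 and 11.0 CPM at 8-10 ribosomes in S34F, FS and WT, against 14.6, 15.4 and 8.85 CPM in monosomes (0.75 ± 0.32, edgeR adjusted p = 0.0521). All 3 lines of NCAPH were higher at 8-10 ribosomes and the value stopped just short of the threshold. NCAPD2, the other condensin subunit not called, had 192, 165 and 94.1 CPM at 8-10 ribosomes in S34F, FS and WT, against 210, 318 and 90.6 CPM in monosomes (-0.22 ± 0.25, edgeR adjusted p = 0.473).

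Some of these genes also stood apart in the ratio of gradient level to cytosolic level. The gradient and RIP tables were counted separately, and no test was made across them. SPC25 averaged 238, 173 and 345 CPM over the S34F, FS and WT gradients, while the Cytosol libraries of these lines held 2.14, 5.81 and 3.73 CPM. The WT ratio for SPC25 was 92.3, the highest of the genes with more than 3 Cytosol counts, followed by 15.3 for ECT2 and 5.77 for KIF11. This order varied by line. In S34F KIF11 had 3.46, below TTK at 13.8 and CENPE at 9.14, whose Cytosol levels there were only 0.505 and 0.856 CPM. ECT2 averaged 73.1, 80.9 and 72.7 CPM over the gradients of S34F, FS and WT and 4.14, 7.49 and 4.75 CPM in their Cytosol libraries. FOXM1 averaged 275, 291 and 149 CPM over the gradients, against 107, 133 and 81.7 CPM in Cytosol. In the RefSeq annotation (GRCh38.p14) SPC25 overlaps NOSTRIN, and FOXM1 overlaps ITFG2 and RHNO1. ECT2 overlaps a snoRNA and 2 pseudogenes, and KIF11 overlaps the pseudogene RPL11P4, but neither overlaps a protein-coding gene. Other genes of the set do, namely CCNA2 (EXOSC9), PLK1 (ERN2), KIF20A (CDC23), ANLN (MATCAP2), NCAPG (LCORL) and BUB1B (BUB1B-PAK6). Overlaps are given as listed in the annotation, without their strand or shared exons. Whether strand was used in counting is not given in the sources used here, so reads of overlapping genes may not be told apart, and their part in these values was not tested.

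Most of the genes also differed between 8-10 and 7 ribosomes, a contrast that uses the same 8-10 libraries as the one against monosomes. At 8-10 ribosomes 30 of the 45 genes were higher than at 7 ribosomes, 3 were lower and 12 were not called, where 29.0% of all genes were called, 14.5% higher and 14.5% lower. The median log2 fold change was 1.48 for the 45 genes and -0.15 for all genes tested. TOP2A had 177, 54.0 and 26.9 CPM at 8-10 ribosomes in S34F, FS and WT, against 16.1, 19.1 and 3.66 CPM at 7 ribosomes (2.59 ± 0.41, SE, edgeR adjusted p = 0.000105). TTK had 28.6, 14.8 and 5.32 CPM at 8-10 ribosomes in S34F, FS and WT, against 2.08, 4.56 and 1.20 CPM at 7 ribosomes (2.48 ± 0.44, edgeR adjusted p = 0.000218). Neither gene's libraries overlapped between these fractions. CENPF had 59.5, 17.5 and 13.5 CPM at 8-10 ribosomes in S34F, FS and WT, against 9.64, 5.14 and 1.80 CPM at 7 ribosomes (2.20 ± 0.37, edgeR adjusted p = 0.000148). SMC2 had 44.3, 22.3 and 11.6 CPM at 8-10 ribosomes in S34F, FS and WT, against 7.03, 5.84 and 1.90 CPM at 7 ribosomes (2.19 ± 0.43, edgeR adjusted p = 0.000501). In both, every 8-10 library was above every library at 7 ribosomes. TPX2 rose by 2.17 ± 0.27, PRC1 by 2.06 ± 0.33 and CCNB1 by 1.90 ± 0.32 (edgeR adjusted p from 4.55e-05 to 0.000168). By role, all 5 motors and assembly factors rose, as did 6 of 7 condensation genes, 5 of 6 cytokinesis genes and 4 of 5 checkpoint genes. One of the 4 genes of anaphase onset rose, CDC20, by 1.07 ± 0.33 (edgeR adjusted p = 0.0164). CDCA8 and KIF2C rose by 1.08 ± 0.27 and 1.00 ± 0.27 (edgeR adjusted p = 0.00394 and 0.00612).

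CENPA, FOXM1 and BIRC5 were the 3 genes lower at 8-10 than at 7 ribosomes. CENPA had 19.4, 10.5 and 14.4 CPM at 8-10 ribosomes in S34F, FS and WT, against 63.5, 60.7 and 38.3 CPM at 7 ribosomes (-2.06 ± 0.36, SE, edgeR adjusted p = 0.000191). BIRC5 had 48.2, 62.7 and 66.6 CPM at 8-10 ribosomes in S34F, FS and WT, against 227, 193 and 115 CPM at 7 ribosomes (-1.59 ± 0.41, edgeR adjusted p = 0.0049). In both genes every line was lower at 8-10 ribosomes, and the libraries did not overlap. FOXM1 had 72.1, 58.3 and 44.4 CPM at 8-10 ribosomes in S34F, FS and WT, against 250, 191 and 95.8 CPM at 7 ribosomes (-1.74 ± 0.36, edgeR adjusted p = 0.000825). The extremes of their roles that were not called were MAD2L1 at 0.71 ± 0.34, NCAPD2 at 0.64 ± 0.25, ECT2 at 0.41 ± 0.26 and UBE2C at -0.75 ± 0.38 (edgeR adjusted p from 0.0603 to 0.26). NCAPD2 was called higher with DESeq2 (adjusted p = 0.00659), as it was with RLE size factors and with no filter on low counts in edgeR. Without the line as a block 21 genes were called, 18 of them higher, and CDC20, CDCA8 and KIF2C were among the 12 calls lost. The calls of CDC20 and CDCA8 were also lost without FS and that of KIF2C without S34F.

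Between 6-7 and 2-3 ribosomes as many of the genes were higher as lower, and the share called was close to that of all genes. Of the 45 genes, 7 were higher at 6-7 ribosomes, 7 were lower and 31 were not called, where 33.6% of all genes were called, 20.8% higher and 12.8% lower. The median log2 fold change was -0.21 for the 45 genes and -0.04 for all genes tested. PTTG1 in S34F had 243 and 326 CPM at 6 and 7 ribosomes, against 88.7 and 127 CPM at 2 and 3 ribosomes. In FS it had 247 and 192 CPM at 6 and 7 ribosomes, against 38.9 and 78.3 CPM at 2 and 3. In WT it had 95.7 and 176 CPM at 6 and 7 ribosomes, against 30.3 and 84.2 CPM at 2 and 3, so each line was higher in the heavier pair (1.68 ± 0.29, SE, edgeR adjusted p = 9.97e-05). BIRC5 rose by 1.64 ± 0.29, UBE2C by 1.39 ± 0.27, CENPA by 1.13 ± 0.25, SPC24 by 1.04 ± 0.33, MAD2L1 by 0.96 ± 0.26 and CCNA2 by 0.76 ± 0.22 (edgeR adjusted p from 0.000163 to 0.0189). The BIRC5 libraries of S34F ran to 320 CPM at 6 ribosomes, against 31.6 CPM at 2 ribosomes in that line.

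TOP2A led the genes that were lower at 6-7 than at 2-3 ribosomes. It had 17.3 and 16.1 CPM at 6 and 7 ribosomes, against 41.3 and 17.8 CPM at 2 and 3 in S34F. In FS it had 31.4 and 19.1 CPM at 6 and 7 ribosomes, against 63.5 and 61.1 CPM at 2 and 3. In WT it had 7.43 and 3.66 CPM at 6 and 7 ribosomes, against 12.3 and 11.8 CPM at 2 and 3, and the log2 fold change was -1.03 ± 0.28 (SE, edgeR adjusted p = 0.00732). Each line was lower in the heavier pair, and in S34F the value at 3 ribosomes was already low. The TOP2A call was lost without WT, without FS and without the block. KIF11 fell by 0.97 ± 0.21 on the log2 scale, TTK by 0.91 ± 0.31, NCAPH by 0.81 ± 0.24, KIF4A by 0.75 ± 0.24, BUB1 by 0.73 ± 0.27 and ECT2 by 0.64 ± 0.18 (edgeR adjusted p from 0.00106 to 0.0379). Role extremes that were not called ran from KIF2C at 0.25 ± 0.19, CDCA8 at 0.20 ± 0.19 and CDC20 at 0.15 ± 0.23 to RACGAP1 at -0.12 ± 0.19, SMC4 at -0.21 ± 0.22, CCNB1 at -0.43 ± 0.22 and SPC25 at -0.64 ± 0.39 (edgeR adjusted p from 0.145 to 0.669). Without the line as a block 4 genes were called higher and 2 lower, KIF11 and ECT2, and without the WT line 6 higher and 1 lower. Without the FS line 9 genes were called, 5 higher and 4 lower, and without S34F 4 were called higher and 7 lower. PTTG1, BIRC5, UBE2C, CENPA and KIF11 kept their calls in these 4 fits, and the other 9 genes lost theirs in at least 1 of them.

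At the light end, 0 of the 45 genes were called between 2-3 ribosomes and monosomes, where 3.14% of all genes were called, 2.96% higher and 0.176% lower. There were 5 genes with an unadjusted edgeR p under 0.05, and DESeq2 called 2, BIRC5 higher at 1.14 (DESeq2 adjusted p = 0.0161) and NCAPD2 lower at -0.59 (DESeq2 adjusted p = 0.027). BIRC5 also had the largest edgeR value, 1.17 ± 0.37 (SE, edgeR adjusted p = 0.0838), followed by CENPA at 0.83 ± 0.32, and SPC25 had the lowest at -0.78 ± 0.46 (edgeR adjusted p = 0.167 and 0.363). The median log2 fold change was 0.07 for the 45 genes and -0.01 for all genes tested.

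**Figure D2:**
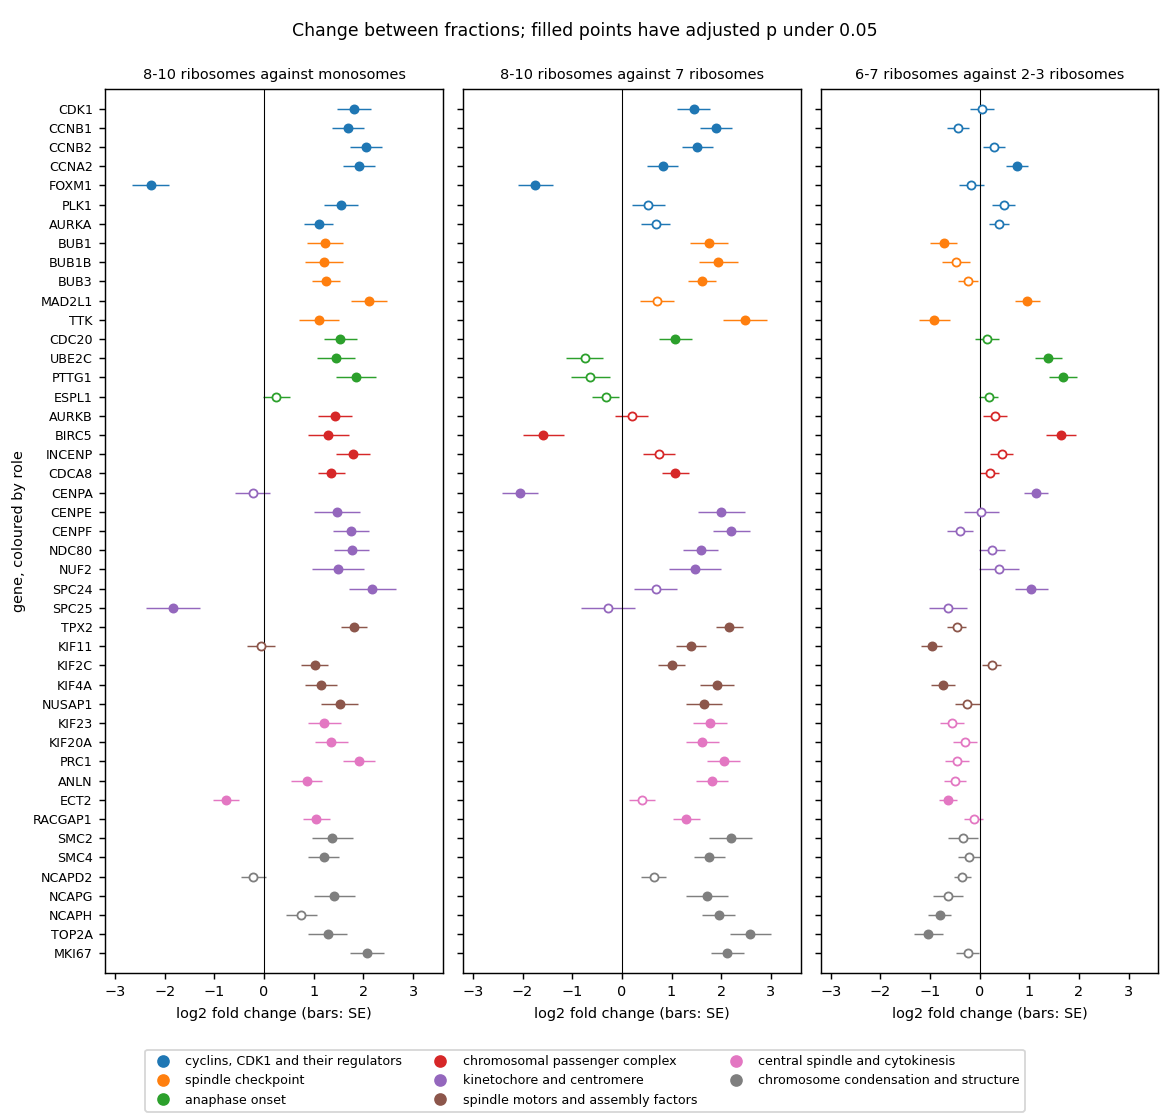
Log2 fold change (horizontal axis, bars are SE) of the 45 genes (vertical axis, coloured by role) for 8-10 ribosomes against monosomes, 8-10 against 7 ribosomes and 6-7 against 2-3 ribosomes; filled points have an edgeR adjusted p under 0.05, with 3 lines. In the first 2 panels most filled points lie right of 0, with FOXM1, SPC25 and ECT2 to the left in the first and CENPA, FOXM1 and BIRC5 in the second, while the third panel has 7 filled points on each side.

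Genes that were high at 6-7 ribosomes and those that were high at 8-10 ribosomes differed in length. Transcript lengths, as listed in the RIP tables, ran from 654 to 12495 bases over the 45 genes. The 10 genes under 2 kb had a median log2 fold change of 0.44 for 8-10 against 7 ribosomes, the 21 genes of 2 to 4 kb 1.61 and the 14 genes of 4 kb or more 1.87. Over all genes tested the medians of the same length classes were -0.58, -0.14 and 0.06. For 6-7 against 2-3 ribosomes the order turned, with medians of 0.67, -0.23 and -0.37 in the 45 genes and 0.29, -0.01 and -0.19 in all genes. For 8-10 ribosomes against monosomes the medians of the 45 genes were 1.51, 1.35 and 1.17, and those of all genes 0.48, 0.12 and -0.16. Across the 45 genes log2 length went with the 8-10 against 7 fold change at Pearson r = 0.47 and Spearman rho = 0.55, and across 15940 genes at 0.26 and 0.24. For 6-7 against 2-3 ribosomes r was -0.58 and rho -0.58 in the 45 genes, and -0.19 and -0.20 in all genes. These correlations are across genes of the same libraries, which are not independent replicates, and are given as descriptions.

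**Figure D3:**
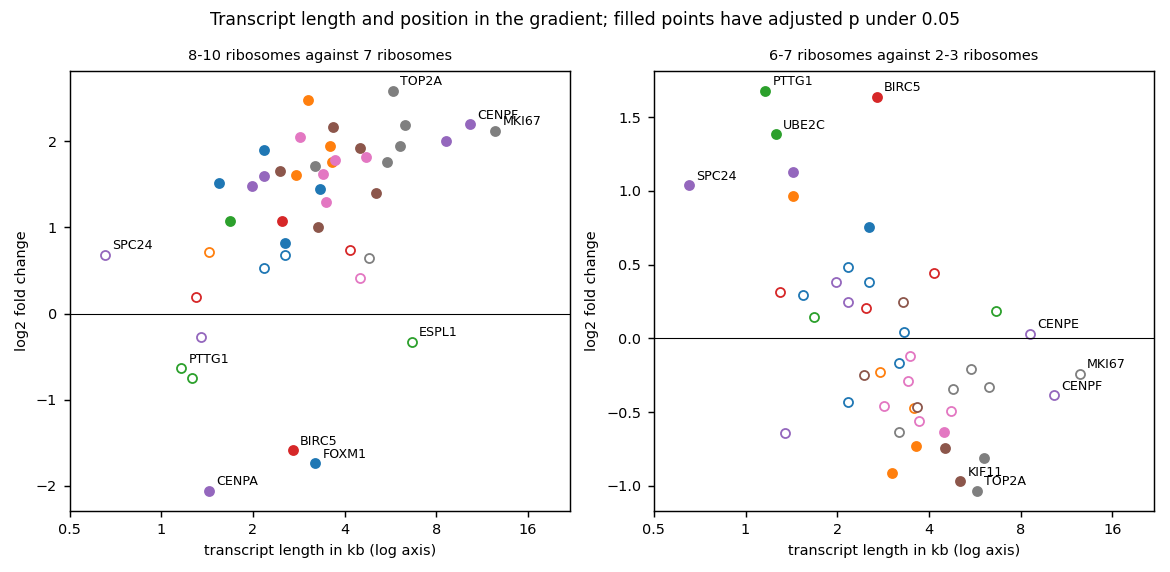
Transcript length (horizontal log axis, kb) and log2 fold change (vertical axis) of the 45 genes, coloured by role, for 8-10 against 7 ribosomes and for 6-7 against 2-3 ribosomes; filled points have an edgeR adjusted p under 0.05. Short genes such as CENPA lie low on the left panel and PTTG1 and UBE2C high on the right one, while TOP2A, a long gene, lies high on the left and low on the right; BIRC5, of 2 to 4 kb, goes with the short genes.

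A further pattern was a dip at 4 ribosomes. CCNB2, UBE2C, PTTG1, AURKB, BIRC5 and CENPA were lower at 4 ribosomes than at both 3 and 5 ribosomes in all 3 lines. BIRC5 had 143, 70.9 and 261 CPM at 3, 4 and 5 ribosomes in S34F, 138, 65.5 and 154 CPM in FS and 64.7, 33.9 and 81.9 CPM in WT. CENPA had 55.5, 33.6 and 96.1 CPM in S34F, 58.4, 46.0 and 95.3 CPM in FS and 43.8, 20.4 and 48.6 CPM in WT. The dip was found in 16.6% of the 9501 genes with at least 500 counts per gradient, and in 50.8% of those under 2 kb, so it is not particular to mitosis genes. The library at 4 ribosomes enters none of the tested contrasts except through the shared estimate of spread.

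The ribosome index, the mean ribosome number of a gene weighted by its CPM in the 8 fractions with 8-10 set to 9, summarises a gradient in 1 number. Its median over the 29 mitosis genes that had 500 counts or more per gradient was 5.53 in S34F, 5.12 in FS and 4.98 in WT, against 4.94, 4.82 and 4.76 over all 9501 such genes. The index of 23 of the 29 genes was above the median of all genes in S34F, of 19 in FS and of 21 in WT. CCNB2 had the highest mean at 5.81 ± 0.50 (SD, n = 3 lines), followed by PTTG1 at 5.70 ± 0.24, CCNA2 at 5.65 ± 0.78 and MKI67 at 5.56 ± 0.44. These 4 lay within 1 SD of each other. SPC25 had the lowest at 3.63 ± 0.30, followed by FOXM1 at 3.94 ± 0.13, ECT2 at 4.01 ± 0.29, KIF11 at 4.25 ± 0.44 and NCAPD2 at 4.34 ± 0.24. TOP2A spread the most between lines, with 6.19 in S34F, 4.17 in FS and 4.86 in WT. BIRC5 spread the least, with 5.34 in S34F, 5.26 in FS and 5.46 in WT.

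Other mitotic genes were counted in the same way. Of 99 further genes of mitosis, 46 rose and 4 fell at 8-10 ribosomes against monosomes, where 28.3% of all genes were called higher and 21.6% lower, with a median log2 fold change of 0.88. PBK, a mitotic kinase, and CEP55, an abscission factor, rose by 2.54 ± 0.36 and 2.38 ± 0.41 (SE, edgeR adjusted p = 2.46e-05 and 0.000124), while KIF18B fell by 1.56 ± 0.29 and ANAPC15 by 1.53 ± 0.46 on the log2 scale (edgeR adjusted p = 0.000217 and 0.00826). Of 12 genes of cohesin, the ring that holds chromatids together, and its regulators, 11 rose, and of 16 subunits of the anaphase-promoting complex 6 rose and 2 fell. For 8-10 against 7 ribosomes 37 of the 99 rose and 12 fell, where 14.5% of all genes were called in each direction, led by ESCO2 at 2.54 ± 0.73 and RAD21 at 2.42 ± 0.32, with ANAPC11 at -2.81 ± 0.72 and ANAPC15 at -2.45 ± 0.45 at the other end (edgeR adjusted p from 4.76e-05 to 0.00979). For 6-7 against 2-3 ribosomes 22 rose and 9 fell, shares near the 20.8% and 12.8% of all genes, led by CENPW at 2.40 ± 0.29 and CKS2 at 2.24 ± 0.27, with KIF15 at -1.02 ± 0.38 and KIF14 at -0.83 ± 0.24 (edgeR adjusted p from 4.67e-06 to 0.0378). Between 2-3 ribosomes and monosomes 3 of the 99 rose, where 2.96% of all genes did, so the share was near the background. They were ANAPC15, ANAPC13 and CDC26, all small subunits of the anaphase-promoting complex, by 2.04 ± 0.39, 2.00 ± 0.44 and 1.98 ± 0.38 (edgeR adjusted p from 0.00597 to 0.012). Of 32 genes of DNA replication, 21 rose and 2 fell at 8-10 ribosomes against monosomes, with a median of 0.97, led by FEN1 at 2.05 ± 0.38 and MCM6 at 2.00 ± 0.33, with CDT1 at -1.34 ± 0.34 and ORC6 at -1.12 ± 0.31 (edgeR adjusted p from 8.07e-05 to 0.00532). The difference between these lists and the 45 genes was not tested.

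Between lines, most of the 29 genes that had 500 counts or more per gradient were at a higher level in the S34F and FS gradients than in WT. There is 1 gradient per line, whose fractions are not replicates, so no test was made, and the comparisons against WT share the WT gradient. In bulk RNA, more dividing cells and more RNA per dividing cell cannot be told apart. Of these 29 genes, 28 had a higher gradient mean in S34F than in WT, with a median log2 ratio of 0.85 against -0.05 over all 9501 genes. In S34F 8 were past 2-fold higher, where 2.55% of all genes were, and 0 past 2-fold lower, where 2.35% were. TOP2A averaged 44.6 CPM over the S34F gradient, against 12.2 CPM in WT, a log2 ratio of 1.82. KIF20A averaged 30.1 CPM in S34F, against 8.48 CPM in WT (log2 ratio 1.77), and ANLN 41.4 CPM, against 13.5 CPM (1.58). MKI67, CCNB1, BIRC5, NUSAP1 and SMC4 followed at log2 ratios of 1.24, 1.22, 1.21, 1.09 and 1.08. TOP2A, KIF20A, ANLN, MKI67, CCNB1 and SMC4 were higher in S34F than in WT in all 8 fractions, and BIRC5 and NUSAP1 in 7. SPC25 was the 1 gene lower in S34F, at -0.53, and ECT2 and CDC20 were near 0 at 0.01 and 0.06.

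The FS gradient was above WT for 25 of the 29 genes. Of these, 12 were past 2-fold higher, where 12.0% of all genes were, and 0 past 2-fold lower, where 3.38% were, with a median log2 ratio of 0.93 against 0.08 over all genes. TOP2A averaged 50.7 CPM in FS, against 12.2 CPM in WT (log2 ratio 2.01), ANLN 50.9 CPM, against 13.5 CPM (1.87), and KIF20A 31.8 CPM, against 8.48 CPM (1.85). SMC4, NUSAP1, CCNA2, NCAPD2 and RACGAP1 followed at 1.58, 1.47, 1.36, 1.29 and 1.25, and CCNB1, MKI67, CCNB2 and TPX2 at 1.20, 1.19, 1.18 and 1.14. All 12 were higher in FS than in WT in all 8 fractions. SPC25 at -0.99, CDC20 at -0.43 and UBE2C at -0.14 were the lowest. Against FS, the S34F gradient had 12 of the 29 genes higher, a median log2 ratio of -0.08 and 0 genes past 2-fold, where 0.989% of all genes were past 2-fold higher and 9.09% lower. UBE2C at 0.72, PLK1 at 0.57 and BIRC5 at 0.50 were the most above FS, and CCNA2 at -0.77, AURKA at -0.55 and SMC4 at -0.50 the most below. Scaling by TMM moved the median of all genes from -0.07 to 0.15 for S34F against FS and from 0.08 to -0.14 for FS against WT, turned the S34F against FS median of the 29 genes to 0.09, and left 8 genes past 2-fold higher in FS than in WT.

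Taken by fraction, the medians of the 29 genes varied, as did those of all genes. At 8-10 ribosomes the median log2 ratio of the 29 genes was 1.18 for S34F against WT and 0.82 for FS against WT (0.03 and 0.08 over all genes), and 17 and 11 genes were past 2-fold higher, where 20.2% and 10.5% of all genes were. At 5 ribosomes these medians were 0.30 for S34F against WT and 1.15 for FS against WT (-0.10 and 0.22 over all genes), with 2 and 15 genes past 2-fold higher, where 4.66% and 20.2% of all genes were. Set against FS, S34F had a median of 0.26 at 8-10 ribosomes, with 21 of 29 genes above 0, and of -0.82 at 5 ribosomes, with 8 above 0, where the medians of all genes were -0.02 and -0.23. At 6 ribosomes the median was -0.59 for the 29 genes and -0.56 for all genes. TOP2A had 177 CPM in S34F, 54.0 CPM in FS and 26.9 CPM in WT at 8-10 ribosomes, and 16.2, 48.1 and 9.30 CPM at 5 ribosomes. CCNB1 had 292, 183 and 58.8 CPM in S34F, FS and WT at 8-10 ribosomes, and 31.9, 59.4 and 22.9 CPM at 5 ribosomes.

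In the cytosolic RNA the genes of S34F lay on both sides of WT. Of the 34 genes whose Cytosol level averaged at least 5 CPM over the lines, 19 were higher in S34F than in WT, with a median log2 ratio of 0.09, and 1 gene, CENPF at 1.16, was past 2-fold higher, where 5.29% of all genes were, and 0 past 2-fold lower, where 5.03% were. In FS against WT, 32 of the 34 were higher, with a median of 0.70, 6 past 2-fold higher and 1 past 2-fold lower, where 5.65% and 6.95% of all genes were. In S34F against FS 3 of the 34 were higher, with a median of -0.59, 1 past 2-fold higher and 6 past 2-fold lower, where 7.15% and 5.45% of all genes were. Of all 9199 genes at this Cytosol level, 49.9% were higher in S34F than in WT, 46.3% in FS than in WT and 53.4% in S34F than in FS. Of the 27 genes that could be read in both measures, the sign in gradient and Cytosol was the same for 15 in S34F against WT and for 24 in FS against WT. The share of all genes with the same sign was not counted. KIF20A had 27.5 CPM in S34F Cytosol, 68.7 CPM in FS and 40.6 CPM in WT, and ANLN 12.3, 37.7 and 14.5 CPM. The S34F gradient thus held KIF20A and ANLN above WT while its Cytosol library held them below.

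**Figure D4:**
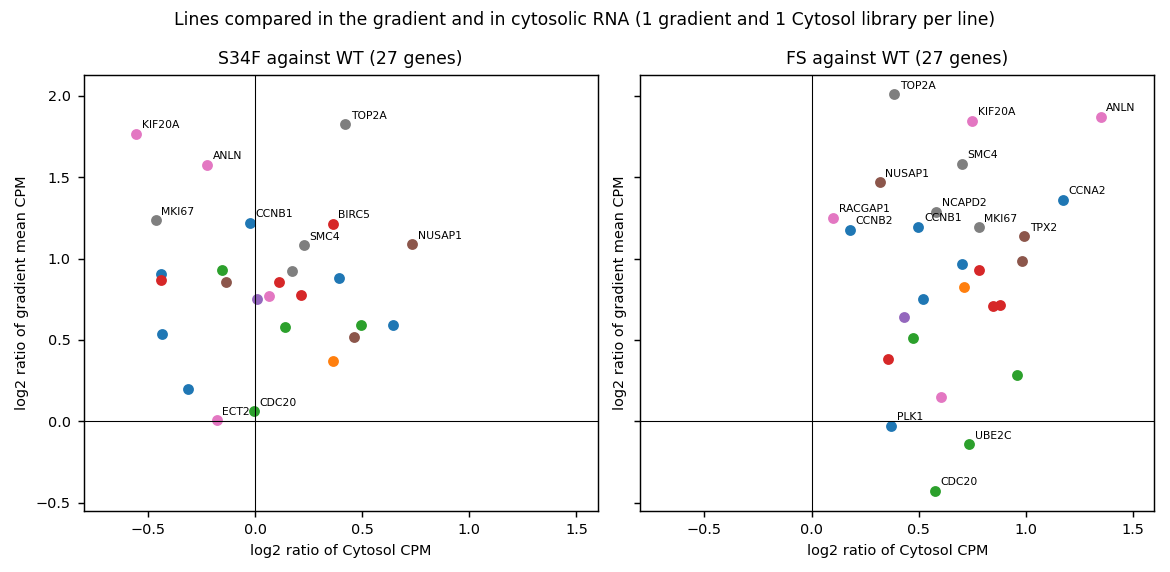
Log2 ratio of Cytosol CPM (horizontal axis) and of gradient mean CPM (vertical axis) for S34F against WT (left) and FS against WT (right), 1 point per gene for the 27 genes readable in both, coloured by role, with 1 gradient and 1 Cytosol library per line. In the left panel the points lie mostly above 0 on the vertical axis and on both sides of 0 on the horizontal one, and in the right panel mostly above 0 on both.

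Per kb of transcript, CDC20 was the most abundant of the 45 genes in Cytosol at 131 ± 32 CPM per kb (SD, n = 3 lines), followed by UBE2C at 76.5 ± 22, PLK1 at 57.3 ± 16 and CCNB1 at 51.0 ± 11 CPM per kb. UBE2C, PLK1 and CCNB1 lay within about 1 SD of their neighbours in this order, and CDC20 lay above all of them. At the low end were NUF2 at 0.34 ± 0.37, TTK at 0.25 ± 0.24 and CENPE at 0.11 ± 0.08 CPM per kb. Over the gradients SPC25 led at 187 ± 64 CPM per kb, followed by PTTG1 at 109 ± 23, UBE2C at 95.2 ± 27 and FOXM1 at 74.5 ± 24 CPM per kb.

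No mitosis gene was called between the U2AF1 precipitate and the control precipitate. Of the 45 genes, 43 passed the filter on low counts (NUF2 and TTK did not), and 0 were called for IP against IgG, where 1.34% of 11612 genes were called by edgeR, 0.224% higher and 1.12% lower. Of these, 6 had an unadjusted p under 0.05, and the lowest adjusted p was 0.252. The median log2 fold change was 0.16 for the 43 genes and 0.03 for all genes tested. MAD2L1 had the largest value, with 8.10, 13.7 and 12.3 CPM in the IP of S34F, FS and WT, against 0, 0.675 and 0.845 CPM in IgG and 8.56, 2.59 and 6.90 CPM in Cytosol. All 3 IP libraries of MAD2L1 were above all IgG libraries (4.42 ± 1.61, SE, edgeR adjusted p = 0.252), and DESeq2 called this 1 gene (adjusted p = 0.0201). The IgG values lie at or under 3 counts, so the fitted fold is no bound. CENPE had 13.6, 3.91 and 2.57 CPM in the IP of S34F, FS and WT, against 0.349, 0 and 0.564 CPM in IgG, and BUB1 5.03, 10.8 and 14.3 CPM, against 0.654, 0 and 1.96 CPM. For both, edgeR gave adjusted p = 0.373 and 0.387. CENPA had 12.0, 51.5 and 16.0 CPM in the IP of S34F, FS and WT, against 7.85, 4.42 and 3.10 CPM in IgG (2.00 ± 0.87, edgeR adjusted p = 0.342). At the other end was BUB1B, with 0, 0.326 and 3.95 CPM in the IP of S34F, FS and WT, against 5.45, 0 and 11.0 CPM in IgG (-2.38 ± 1.95, edgeR adjusted p = 0.678).

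Taken by line, 17 of the 45 genes were higher in IP than in IgG in all 3 lines, 2 were lower in all 3 and 26 were mixed. The share of all genes that were higher in all 3 lines was not counted. In S34F, FS and WT singly, 29, 34 and 30 of the 45 genes were higher in IP. Of all genes with at least 100 counts, 49.96%, 55.06% and 61.12% were. The median log2 ratio of IP to IgG was 0.34 in S34F, 0.58 in FS and 0.39 in WT, against 0, 0.17 and 0.36 over all genes with at least 100 counts. IP against Cytosol also gave 0 calls of 43, where 0.534% of all genes were called (0.491% higher, 0.0431% lower), with 2 genes at an unadjusted edgeR p under 0.05, 0 calls by DESeq2 and a median of 0.04. IgG against Cytosol gave 0 calls, where 0.680% were called (0.663% higher, 0.0172% lower), with 3 genes at an unadjusted edgeR p under 0.05, 0 calls by DESeq2 and a median of -0.39. The spread between RIP libraries was a biological coefficient of variation of 69.8%, against 32.9% in the gradients, and the SE of IP against IgG ran from 0.25 for CDC20 to 2.55 for NCAPG on the log2 scale. Of the 89 other mitotic genes tested in RIP, 0 were called in any of the 3 comparisons.

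PAR-CLIP of U2AF1 gave clusters on nearly all of these genes in Flp-In-293 cells. Both replicates were pooled in each deposited list, so no test was made, and the chromosome positions are as the authors list them on a build not given in the sources used here. In the cytoplasm S34F protein had 331 clusters on 42 of the 45 genes and WT protein 278 clusters on 41, where 38.7% and 42.4% of the 15945 genes tested in the gradients had a cluster. In chromatin WT protein had 1420 clusters on all 45, where 51.6% of genes had one. These were 1.15% of the 28828 clusters of the S34F cytoplasm list, 1.04% of the 26613 of the WT cytoplasm list and 1.53% of the 92895 of the WT chromatin list. MAD2L1, SPC24 and SPC25 had none with S34F protein in cytoplasm, and CCNB2, PTTG1, CDCA8 and SPC25 none with WT protein in cytoplasm. The median cluster on these genes held 11 reads in S34F cytoplasm, 13 in WT cytoplasm and 42 in WT chromatin, against 9, 10 and 29 in the whole lists. Its fraction of T-to-C conversions was lower than in the whole lists. The medians were 0.778 in S34F cytoplasm, 0.686 in WT cytoplasm and 0.931 in WT chromatin, against 0.833, 0.837 and 1.0.

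MKI67 and SMC4 were among the 5 genes with most clusters in each list. With S34F protein in cytoplasm the leading genes were BUB3 with 20 clusters, MKI67 and PRC1 with 19 each, SMC4 with 17 and KIF23 and TOP2A with 16 each. With WT protein in cytoplasm the leading genes were MKI67 with 23 clusters, KIF23 with 15, SMC4 with 13 and CDK1, CENPF and KIF11 with 12 each. With WT protein in chromatin the 5 were MKI67 and CENPF with 114 clusters each, SMC4 with 77, CENPE with 74 and TOP2A with 72. The KIF23 cluster with most reads lay in the same coding exon with both proteins, at chr15:69709821-69709842 with 86 reads for S34F and at chr15:69709798-69709842 with 58 reads for WT. SMC4 likewise had its leading cytoplasmic cluster at chr3:160150265-160150295 with 58 reads for S34F and at chr3:160150269-160150295 with 37 reads for WT. The conversion fractions of these clusters were 0.289 (S34F) and 0.379 (WT) for KIF23 and 0.362 (S34F) and 0.189 (WT) for SMC4. BUB3 led with 37 reads in a coding exon at chr10:124917340-124917388 and MKI67 with 26 reads in its 3' UTR at chr10:129895624-129895663, both for S34F protein. For WT protein in cytoplasm MKI67 led with 38 reads at chr10:129910408-129910440, CDK1 with 114 reads at chr10:62552012-62552045 and CENPF with 83 reads at chr1:214788341-214788367, all in coding exons. In chromatin the leading clusters of MKI67, TOP2A, CENPF, CENPE and SMC4 all ran from an intron into an exon, with 2143, 1156, 874, 513 and 468 reads.

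Most cytoplasmic clusters on these genes did not overlap a cluster of the other lists. Of the 331 S34F cytoplasmic clusters on these genes, 47 overlapped a WT cytoplasmic cluster by at least 1 base, 14.2% (95% Wilson interval 10.8 to 18.4%), and 48 of the 278 WT ones overlapped an S34F one, 17.3%, against 9.41% and 10.2% over the whole lists. With WT chromatin, 141 of the S34F cytoplasmic clusters overlapped, 42.6% (37.4 to 48.0%), and 124 of the WT cytoplasmic clusters, 44.6% (38.9 to 50.5%), against 21.3% and 18.2% over the whole lists. Clusters on these genes also held more reads at the median than those of the whole lists, and the part of this in the overlap was not tested. Intervals cover counting error only.

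In the cytoplasm more than any other class, clusters on these genes lay in coding exons. With S34F protein 51.4% of the 331 clusters did (Wilson interval 46.0 to 56.7%), against 26.5% of the whole list, and with WT protein 54.0% of the 278 (48.1 to 59.7%), against 32.5%. In chromatin 43.0% of the 1420 clusters did (40.5 to 45.6%), against 32.6%. The whole lists hold 9.23 to 13.5% of clusters in other classes, such as noncoding RNA, which protein-coding genes can rarely fill, so the shares are not of like populations. Clusters that ran from an intron into an exon made up 6.04% of S34F cytoplasmic clusters (20 of 331), 4.32% of WT cytoplasmic ones (12 of 278) and 19.5% of WT chromatin ones (277 of 1420), against 3.36%, 2.77% and 17.7% of the whole lists. Clusters in the 3' UTR made up 11.8%, 10.8% and 5.63%, against 17.3%, 15.1% and 5.82%.

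**Figure D5:**
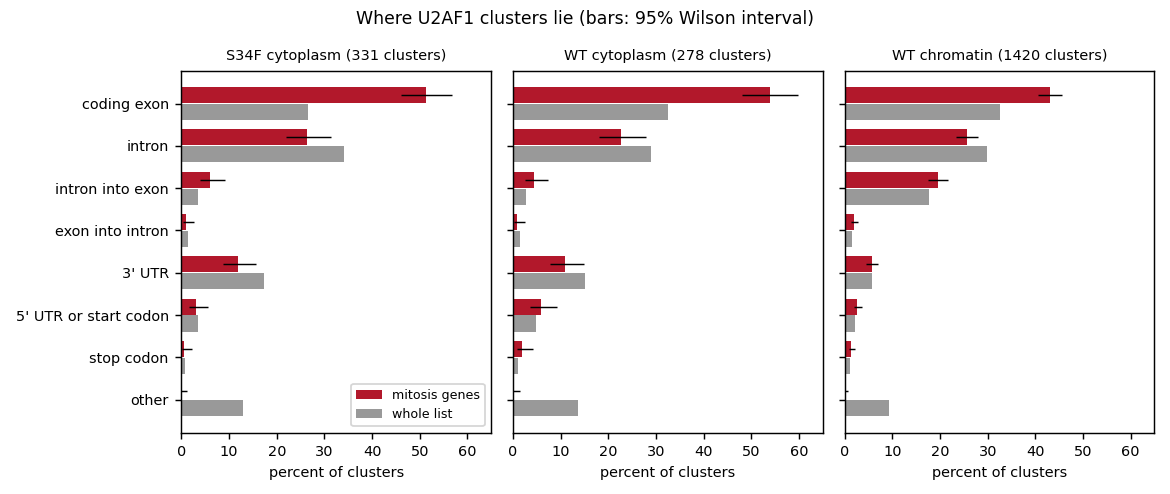
Percent of clusters (horizontal axis) in each annotation class (vertical axis) for the mitosis genes (red, bars are 95% Wilson intervals) and for the whole list (grey) in S34F cytoplasm, WT cytoplasm and WT chromatin. Coding exons hold 51.4%, 54.0% and 43.0% of the clusters on mitosis genes, and clusters running from an intron into an exon hold 19.5% in chromatin.

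Short clusters at the intron end show what U2AF1 touched there. Those below have most reads among clusters of at most 30 bases that run from an intron into an exon, with CAG or TAG, and a G that follows them, in capitals. The first 5 are from WT protein in chromatin and the last 4 from S34F protein in cytoplasm, and all are given 5′ to 3′ as the lists hold them.
NCAPH: atttctcctttTAGatggaagtgct
CCNA2: attttttattcCAGtttttgggagaatt
ANLN: gattacttcttaCAGatgCAGcaaatt
MKI67: tcttctcatttcttTAGGgaat
CCNB1: gggttttgtttCAGGttgatgtcgagcaac
PRC1: agtttttggttttCAGtgaggt
CENPE: tgttttgttttttgCAGGtactat
ECT2: aagtctcttttccaCAGactatt
BUB1: gatttttggaaCAGGatgatgaagat
NCAPH had 572 reads at chr2:97009829-97009853, CCNA2 149 at chr4:122740055-122740082, ANLN 129 at chr7:36463411-36463437, MKI67 119 at chr10:129899961-129899982 and CCNB1 110 at chr5:68471210-68471239. PRC1 had 28 reads at chr15:91528050-91528071, CENPE 21 at chr4:104117189-104117212, ECT2 17 at chr3:172473256-172473278 and BUB1 16 at chr2:111398758-111398783. In most of them a stretch rich in T runs up to the capitals. CAG lay in 17 of the 20 such S34F cytoplasmic clusters of any length on these genes, 85.0% (Wilson interval 64.0 to 94.8%), and TAG in 2, 10.0% (2.79 to 30.1%). In WT cytoplasm CAG lay in 8 of 12, 66.7% (39.1 to 86.2%), and TAG in 7, 58.3% (32.0 to 80.7%). The median length of these clusters was 25.5 bases for S34F and 48 bases for WT, and no test was made between them. In the whole lists CAG lay in 73.8% of such clusters for S34F cytoplasm and 66.3% for WT cytoplasm, and TAG in 27.9% and 33.9%, at a median of 28 bases in both. In WT chromatin CAG lay in 74.7% of the 277 clusters on these genes and TAG in 55.6%, against 70.0% and 47.3% of the whole list. CAG and TAG can both lie in 1 cluster, and the letters were read on the strand the lists give.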

How the data were processed

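Polysome gradients (24 libraries) and RIP (9 libraries) of 3 HBEC lines and 3 PAR-CLIP cluster lists were analysed, from 39 samples. The deposited polysome and RIP tables hold estimated counts per gene symbol, of which 57.5% and 26.3% are not whole. The RIP tables also hold RPKM and gene lengths by the authors, and RPKM was not used. The deposited cluster lists hold read counts per cluster and the fraction of T-to-C conversions, per the file headers, with replicates pooled. TopHat is named in the submitters' processing notes, and its version, the build, the annotation, the counter and the use of strand are not given in the sources used here.

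Counts were rounded to whole numbers, repeated symbols (45 and 119) and 28 date-like names were dropped, and genes were filtered with filterByExpr and scaled by TMM. The quasi-likelihood test of edgeR 4.0.16 (limma 3.58.1, R 4.3.3) was fitted over all libraries of an assay with fraction or library kind and the line as a block, with Benjamini-Hochberg adjustment over all genes tested and calls at an adjusted p under 0.05. SE is the log2 fold change over the square root of F. DESeq2 1.42.0, RLE scaling, no filter, no block, leaving out each line and fitting only the libraries compared were alternatives. The fit was tested on simulated data. Lines were compared without a test by log2 ratios of gradient means with 0.5 CPM added. pandas 2.3.3, numpy 2.4.6 and scipy 1.17.1 were used for the rest.

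The line pairs the libraries, since each line gave 1 library of each fraction or kind. Deviations of libraries of 1 line from the fraction means correlated at a median of 0.346 in the gradients (78 of 84 pairs above 0, against a median of -0.188 between lines) and 0.0643 in RIP (9 of 9 pairs above 0).

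The 45 genes, the other gene lists and the tests were chosen with earlier results of these data known. Genes were named by a rule: the 5 largest rises and falls among calls, the largest and smallest change per role, and, where over 80% were called, each gene not called. CPM in every library is given for the leading genes of each comparison and the heat map shows the rest. Where no gene was called, only the extremes are given.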

Additional observations from a re-analysis of the deposited data

Results flagged for a closer look

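In 8 genes the ratios of IP to IgG went opposite ways in 2 lines, each by more than 2-fold. There is 1 library per line and kind, the values are log2 ratios with 0.5 CPM added, and only lines with more than 3 counts in both libraries were read. The differences were not tested, and the share of all genes that meet this rule was not counted. Of all genes with at least 100 counts, 20.5%, 27.4% and 34.2% were past 2-fold higher in IP in S34F, FS and WT, so large ratios in 1 line were common. For CCNA2, cyclin A2, the log2 ratio of IP to IgG was -1.34 in S34F and 2.44 in WT. INCENP had -2.28 in S34F and 2.13 in WT, KIF4A -1.51 in S34F and 3.21 in WT, and KIF23 -2.41 in S34F and 2.66 in WT. These 4 genes were thus below IgG in S34F and above it in WT. ESPL1, separase, had 1.94 in FS and -1.74 in WT, and CENPF had 1.57 in FS and -1.05 in WT. SPC24 had -1.53 in FS and 2.91 in WT. MKI67 had 1.59 in S34F and -1.49 in FS. None of the 8 was called between IP and IgG over the 3 lines.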

How the results depend on the processing

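No gene called in the main fit changed direction under any alternative that was run, and directions of genes not called were not counted. The median of the 45 genes for 2-3 ribosomes against monosomes was 0.065. It turned to -0.0045 with RLE scaling, -0.0037 with DESeq2 and -0.0074 with only the libraries compared. The untested median of S34F against FS was -0.08 and turned to 0.09 with TMM-scaled totals. Without the line as a replicate block, 25 genes were called for 8-10 ribosomes against monosomes (22 higher), 21 for 8-10 against 7 ribosomes (18 higher) and 6 for 6-7 against 2-3 ribosomes (4 higher, 2 lower). Leaving out each line in turn gave 25 to 37 calls (24 to 35 higher, 1 to 2 lower) for 8-10 ribosomes against monosomes, 28 to 32 (25 to 29 higher, 3 lower) for 8-10 against 7 ribosomes and 7 to 11 (4 to 6 higher, 1 to 7 lower) for 6-7 against 2-3 ribosomes. The 25 calls without S34F lacked 15 genes, TOP2A, SMC2, SMC4, BUB1 and SPC25 among them. Fitting only the libraries compared gave 11 lower calls for 6-7 against 2-3 ribosomes. For 2-3 ribosomes against monosomes, DESeq2 called 2 genes (1 higher, 1 lower), and no filter on low counts or only the libraries compared called 1, higher. For IP against IgG, DESeq2 called 1, higher.

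The ribosome index was 5.69 without monosomes and 5.61 with no scaling by library, against 5.21. For genes past 2-fold in S34F against WT, the median over fractions gave 5, a 1.5-fold limit 20 and 200 counts per gradient 13. A 1.5-fold limit gave 21 for FS against WT. For S34F against FS the median over fractions gave 2, TMM-scaled totals 1 and a 1.5-fold limit 2. Clusters with at least 10 reads numbered 186 in S34F cytoplasm and 183 in WT cytoplasm, and clusters with at least 3 conversion positions 160, 125 and 839 in S34F cytoplasm, WT cytoplasm and WT chromatin. The cause of these shifts was not tested, other than that fewer lines or clusters enter. Single-gene results were counted under every alternative only for called genes with the largest changes or at the extremes of their role. Of these results, 281 kept their call and 39 lost it, and calls of other genes are not in this count. NUF2 and TTK did not pass the filter on low counts in the main RIP fit, while the fits with no filter and without S34F tested all 45 genes.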
